A study of Mus musculus with 6 samples.

Results

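The messenger RNAs of 8 genes that carry a cell through G1 into S phase were followed in mouse muscle stem cells: the D cyclins Ccnd1, Ccnd2 and Ccnd3, their kinase partners Cdk4 and Cdk6, the E cyclins Ccne1 and Ccne2, and Cdk2, the partner of the E cyclins. The genes were chosen by name, with earlier results of these data known. All 8 were found among the 45527 named genes of the count table, and all 8 were among the 16252 genes that passed the filter on low counts. The cells were satellite cells, sorted by yellow fluorescent protein (YFP) 24 h after the lower hindlimb muscles had been injured with 30 µl of cardiotoxin, a toxin that destroys muscle fibres and starts regeneration. The 3 libraries labelled Paxbp1-iKO came from mice with the alleles Pax7creER, Paxbp1flox/flox and R26R-YFP. The 3 control libraries came from mice with Pax7creER, Paxbp1flox/+ and R26R-YFP, so the controls also carried the Cre recombinase, the reporter and 1 floxed allele of Paxbp1. The Cre is a hormone-inducible form expressed from Pax7, a gene of satellite cells, and the reporter marks cells in which it has acted. The labels give neither the age of the mice, nor the dosing that induced the Cre, nor whether a library held cells of 1 animal or of several; the p-values therefore rest on the spread among libraries, which may be technical.

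Satellite cells rest outside the cell cycle until injury calls them back into it. Growth signals raise D cyclins, which bind Cdk4 or Cdk6 and start the phosphorylation of the retinoblastoma protein and its relatives, the pocket proteins. Pocket proteins hold back the E2F transcription factors, and E2F factors switch on the genes of DNA synthesis, among them the E cyclins, which join Cdk2 and complete the phosphorylation. Inhibitors of the Ink4 family block Cdk4 and Cdk6, and those of the Cip/Kip family bind cyclin-Cdk2 complexes. In this scheme D cyclins follow growth signals and E cyclins follow E2F factors, but neither growth signalling nor E2F activity was measured here.

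Promoter sequences matched 5 of the 8 genes in RefSeq's table for GRCm38.p6, which gives 250 bases before and 50 bases from each annotated start; Ccnd1, Ccnd2 and Ccne2 had no entry. The kinase promoters are shown because the 3 kinase genes were lower together and because they hold letters that Myc (the E-box CACGTG) or E2F factors can bind, which is given as a description and not as a site. Capitals mark the E-box in Cdk4 (chromosome 10, 127063285 to 127063584, plus strand) and Cdk6 (chromosome 5, 3343643 to 3343942, plus strand) and the E2F letters in Cdk2 (chromosome 10, 128705002 to 128705301, minus strand), each printed 5′ to 3′ on the strand of the gene.
Cdk4: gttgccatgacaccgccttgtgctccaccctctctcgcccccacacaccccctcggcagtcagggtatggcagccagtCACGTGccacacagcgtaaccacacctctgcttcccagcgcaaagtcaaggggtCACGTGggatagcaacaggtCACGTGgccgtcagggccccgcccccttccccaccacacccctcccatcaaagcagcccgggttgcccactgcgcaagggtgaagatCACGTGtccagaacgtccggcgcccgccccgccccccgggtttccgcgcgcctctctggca
Cdk6: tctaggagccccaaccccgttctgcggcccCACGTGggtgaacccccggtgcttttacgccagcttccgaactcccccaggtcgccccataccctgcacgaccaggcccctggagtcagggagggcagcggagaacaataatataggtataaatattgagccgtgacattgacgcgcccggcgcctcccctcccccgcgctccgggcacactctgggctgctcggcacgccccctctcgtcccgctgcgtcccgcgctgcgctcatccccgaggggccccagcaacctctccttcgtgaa
Cdk2: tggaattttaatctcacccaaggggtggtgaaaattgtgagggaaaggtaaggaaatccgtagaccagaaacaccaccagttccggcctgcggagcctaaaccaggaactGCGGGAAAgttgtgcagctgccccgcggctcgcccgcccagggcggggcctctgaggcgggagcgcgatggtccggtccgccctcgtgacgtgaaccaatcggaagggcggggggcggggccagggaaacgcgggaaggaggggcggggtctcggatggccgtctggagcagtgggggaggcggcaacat
The Cdk4 promoter held 4 E-boxes, which begin at bases -172, -118, -98 and -11 from the start, and that of Cdk6 held 1. The Cdk6 window lies inside the GENCODE M21 locus, which begins at base 3341485, so its count holds for that RefSeq start only. At least 1 E-box stood in 7.15% of the 32851 promoters of this length, and 4 or more stood in 8 of them. The E2F motif was searched on both strands as TTTCCCGC, TTTCGCGC, TTTGCCGC or TTTGGCGC, and 2.26% of promoters held it. Of the 5 genes only Cdk2 had a match, GCGGGAAA at base -140, while Ccne1 and both Ccnd3 promoters had none in this window. Neither the AP-1 motif TGANTCA (7.81% of promoters) nor the cyclic AMP response element TGACGTCA (1.79%) was present in any of these promoters. The Sp1 motif GGGGCGGGG, which 11.4% of all promoters held on either strand, was present in those of Cdk4, Cdk2, Ccne1 and both of Ccnd3, and not in that of Cdk6.

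Named genes held 23299344 to 28016271 counts per library in the libraries labelled Paxbp1-iKO and 23483305 to 27277555 in the controls. CPM below are counts scaled to a common library size after TMM normalization, fold changes are log2 values of iKO-labelled over control ± SE, and adjusted p-values are Benjamini-Hochberg values over all tested genes from edgeR's quasi-likelihood test. Paxbp1 itself had 96.1, 108 and 127 CPM in the iKO-labelled libraries and 70.7, 74.0 and 60.9 CPM in the controls (log2 fold change 0.68 ± 0.13, adjusted p = 0.00954). It was thus higher in every library labelled as knockout, against the label. The count sums reads over all exons and the labels do not name the deleted ones, so this check is not conclusive, and every direction below rests on the labels. The satellite cell markers Pax7, Myod1, Vcam1 and Sdc4 were present in all libraries, and the 10 markers of that list summed to 11162 to 11846 CPM in the iKO-labelled libraries and 9637 to 10104 CPM in the controls. These sums did not overlap, but their direction rests on Sdc4, the largest part. Sdc4 had 6079 ± 214 CPM in iKO-labelled and 3906 ± 251 CPM in control libraries (SD, n = 3 each). Of the 10 markers 4 rose (Pax7, Vcam1, Cdh15 and Sdc4) and 4 fell (Myf5, Itga7, Des and Chrna1). Pax7 itself had 49.4 ± 1.70 CPM in iKO-labelled and 11.3 ± 2.14 CPM in control libraries. Markers of other cells summed to 131 to 152 against 75.4 to 278 CPM (8 endothelial genes, iKO-labelled and control), to 1636 to 1961 against 1619 to 2225 CPM (8 fibro-adipogenic genes) and to 182 to 306 against 184 to 262 CPM (8 macrophage genes). Most of the fibro-adipogenic sums was Gsn, with 1210 ± 73.8 CPM in iKO-labelled and 1287 ± 179 CPM in control libraries. Pdgfra of the same list had 4.39 ± 2.26 and 2.94 ± 1.31 CPM. For 8 neutrophil markers the sums were 5.51 to 12.2 against 2.97 to 10.7 CPM, for 8 myofibre markers 13.9 to 18.2 against 16.2 to 67.1 CPM (1 called, Acta1, with 7.42, 6.71 and 4.21 CPM in iKO-labelled and 37.4, 20.4 and 8.19 CPM in control libraries), and for 8 pericyte and smooth muscle markers 1216 to 1455 against 1723 to 1851 CPM. No marker was at 0 in all libraries, and the neutrophil genes Ly6g, Cxcr2, Retnlg and Mpo stayed under 1 CPM throughout. The pericyte sums did not overlap either, and 2 of the 8 genes were called, Acta2 (41.9 ± 7.46 CPM in iKO-labelled and 197 ± 55 CPM in control libraries) and Des, which is also a satellite cell marker. Des made up most of these sums, with 1094 ± 158 CPM in iKO-labelled and 1418 ± 93.7 CPM in control libraries. For each of the other pericyte and smooth muscle genes the groups overlapped. The part of these markers in the results below was not tested.

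Among the 8 genes, 1 rose, 5 fell and 2 did not pass the test in the iKO-labelled libraries. Ccnd1 was the one that rose. Ccne1, Ccne2, Cdk2, Cdk6 and Cdk4, which act with or after it, fell, and Ccnd2 and Ccnd3 were not called. Of all tested genes 20.4% were called, 8.15% higher and 12.3% lower. The groups did not overlap in CPM for 6 of the 8 genes, against 39.8% of all tested genes (18.9% higher and 20.9% lower). The median log2 fold change was -0.83 over the 8 genes and 0.02 over all tested genes. Scaling by library totals moves the split of all calls from 39.9% to 57.1% higher and the median of all genes to 0.15, while the calls and directions of the 8 genes did not change under that scaling.

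**Figure D1:**
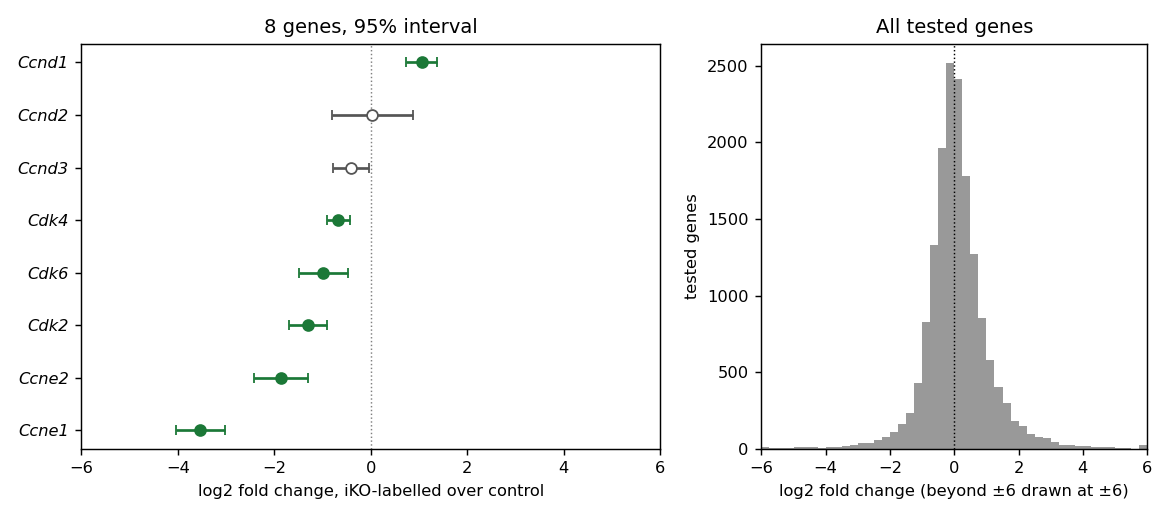
Log2 fold change of each gene, iKO-labelled over control, with its 95% interval (left; filled points passed the test at an adjusted p under 0.05) beside the distribution over all 16252 tested genes on the same axis (right). Ccnd1 is the one called gene above 0, at 1.05, Ccnd2 and Ccnd3 are open points, and the called falls run down to Ccne1 at -3.53.

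The D cyclins did not move together. Ccnd1 encodes the cyclin D that many cell types raise first on growth factor stimulation, and it lies on chromosome 7 (144929931 to 144939925, minus strand, GRCm38). Its level was 552, 433 and 379.5 CPM in iKO-labelled libraries 1 to 3 and 199, 222 and 237 CPM in controls 1 to 3, so that the lowest iKO-labelled library stood above the highest control. It was 2.07-fold higher (log2 fold change 1.05 ± 0.14, 95% interval 0.73 to 1.37, adjusted p = 0.00187), and 1887 of the 16252 tested genes had a larger rise. The iKO-labelled libraries spread more widely (CV 19.4%) than the controls (CV 8.82%), with iKO 1 the highest. In bulk samples such as these, a change in the number of cells that express a gene and a change in RNA per cell cannot be told apart. The exons of LTO1, a gene on the opposite strand, overlap those of Ccnd1 over 1100 bases, and reads of both strands count alike in a kit that does not mark strand. LTO1 had 17.3 CPM in iKO-labelled and 11.3 CPM in control libraries, far below Ccnd1.

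Ccnd2, a D cyclin of chromosome 6 (127125162 to 127152193, minus strand), was the least expressed of the 3. Its CPM were 9.80, 12.1 and 16.5 in iKO-labelled libraries 1 to 3, against 17.9, 12.8 and 6.81 in controls 1 to 3. The groups overlapped over most of their range, and the log2 fold change was 0.03 ± 0.37 (adjusted p = 0.964). Its 95% interval of -0.81 to 0.88 is wide, so these libraries cannot show whether Ccnd2 differed by less than that. The spread was within groups: the CV was 26.7% among iKO-labelled and 44.5% among control libraries. The summed endothelial markers, at 278, 127 and 75.4 CPM in controls 1 to 3, were also highest in control 1 and lowest in control 3. In iKO-labelled libraries 1 to 3 they had 131, 152 and 152 CPM. The same order held in the controls for fibro-adipogenic sums (2225, 1956 and 1619 CPM) and myofibre sums (67.1, 30.1 and 16.2 CPM). It also held for satellite cell sums (10104, 10034 and 9637 CPM). Macrophage sums (184, 215 and 262 CPM) had the reverse order, and neutrophil sums were lowest in control 2. The pericyte marker Rgs5 had 38.6, 47.4 and 68.7 CPM in iKO-labelled libraries 1 to 3. In controls 1 to 3 it had 88.6, 47.9 and 17.3 CPM, also highest in control 1 and lowest in control 3. Rgs5 is the marker of its list that was singled out after its values were seen. It is also the gene of most similar pattern to Ccnd2 among 5265 compared (r = 0.986), so its likeness to Ccnd2 is no separate support. The pericyte and smooth muscle markers in sum had 1723, 1804 and 1851 CPM in controls 1 to 3, lowest in control 1. Most of that sum was Des, also a satellite cell marker, with 1347, 1382 and 1524 CPM in controls 1 to 3. Control 1 was the lowest control for Des, Acta2 and Myh11. It was the highest for Rgs5, Cspg4, Pdgfrb, Notch3 and Mcam, of which Rgs5 and Cspg4 were also lowest in control 3. Whether other cells supplied part of the Ccnd2 reads was not tested.

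Ccnd3, the D cyclin best known from lymphocytes and from differentiating muscle, lies on chromosome 17 (47505051 to 47599691, plus strand). It had 99.96, 92.3 and 71.1 CPM in the iKO-labelled libraries, against 97.1, 120.2 and 135 CPM in the controls, and the groups overlapped only in that iKO 1 stood above control 1. The log2 fold change was -0.42 ± 0.16, with an unadjusted p of 0.0335 and an adjusted p of 0.115, which misses the threshold. With no count filter it was called (adjusted p = 0.0366), and over the other alternatives it was not. Bysl, on the opposite strand, shares 361 exon bases with Ccnd3 and had 155 CPM in iKO-labelled and 152 CPM in control libraries.

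**Figure D2:**
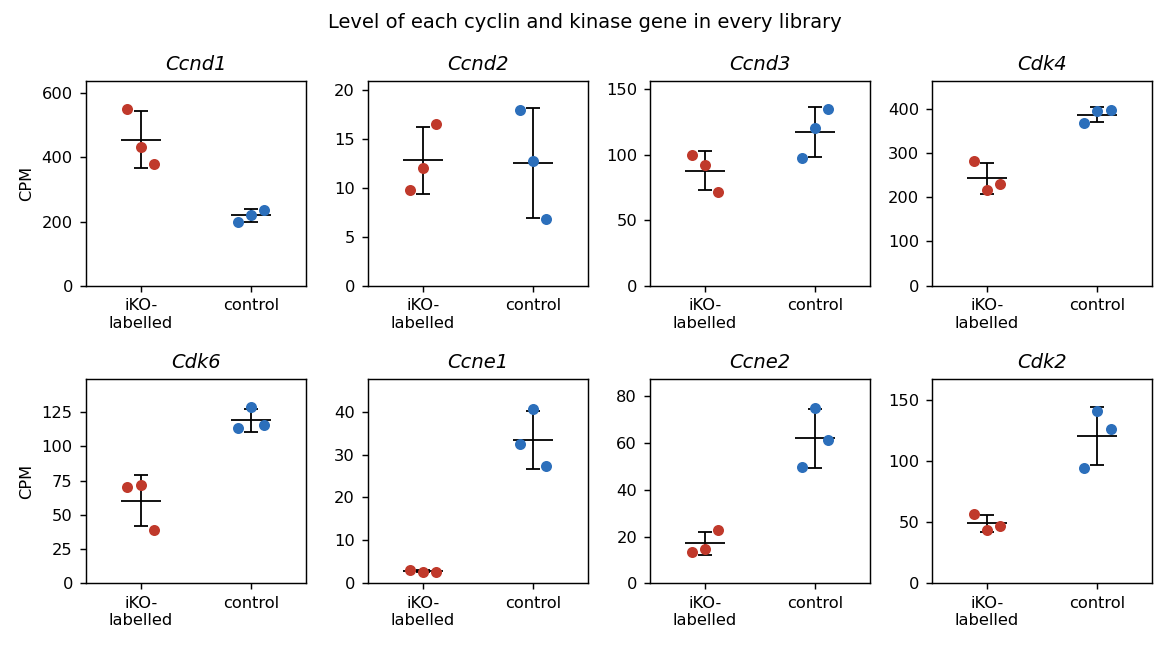
CPM of the 8 genes in each library, with replicates 1 to 3 from left to right in each group, and the mean and SD in black. The groups are apart for all genes but Ccnd2 and Ccnd3.

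Both kinases of the D cyclins fell. Cdk4, the kinase that pairs with D cyclins in most tissues, lies on chromosome 10 (127063534 to 127067920, plus strand). It had 282, 216 and 230.2 CPM in the iKO-labelled libraries and 367, 395 and 397 CPM in the controls, whose lowest value lay above the highest of the iKO-labelled group. It was 1.59-fold lower (log2 fold change -0.67 ± 0.11, adjusted p = 0.00396). The 3 controls differed little (CV 4.32%). Myc, whose protein can bind the E-box letters marked in the Cdk4 promoter, had 894, 1148 and 1148 CPM in the iKO-labelled libraries and 1810.0, 1658 and 1682 CPM in the controls (-0.69 ± 0.10, adjusted p = 0.00277); a link between the genes was not tested. Tspan31 overlaps 641 exon bases of Cdk4 on the opposite strand and had 61.9 CPM in iKO-labelled and 63.9 CPM in control libraries (adjusted p = 0.84).

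Cdk6, the other kinase of the D cyclins, lies on chromosome 5 (3341485 to 3531008, plus strand). Its CPM were 70.5, 71.7 and 38.7 in iKO-labelled libraries 1 to 3, against 113, 129 and 115 in the controls. Library iKO 3 was far below its group, but all 3 iKO-labelled libraries lay under all controls. It was 1.98-fold lower (log2 fold change -0.98 ± 0.22, adjusted p = 0.0169). Without iKO 3 the log2 fold change was -0.75. Its largest adjusted p over all alternatives was 0.0496, so this is the least secure of the 6 calls.

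The E cyclins fell furthest. Ccne1 encodes cyclin E1 and lies on chromosome 7 (38097984 to 38107534, minus strand). It was down to 90, 81 and 68 counts in iKO-labelled libraries 1 to 3, against 726, 1053 and 712 counts in the controls, or 3.15, 2.76 and 2.75 CPM against 32.4, 40.6 and 27.2 CPM. The iKO-labelled libraries were nearly level with each other, with a CV of 7.89%. Ccne1 was 11.6-fold lower (log2 fold change -3.53 ± 0.22, 95% interval -4.05 to -3.02, adjusted p = 1.08e-04), and 79 of the tested genes had a larger fall. No gene of the annotation overlaps its locus. On log2(FPKM + 1) or log2(FPKM + 0.1), which compress low values, the smallest fall was -2.66.

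Ccne2, which encodes cyclin E2, lies on chromosome 4 (11191351 to 11204779, plus strand). It had 13.5, 14.7 and 22.9 CPM in the iKO-labelled libraries and 49.5, 74.8 and 61.3 CPM in the controls. It was 3.63-fold lower (log2 fold change -1.86 ± 0.24, adjusted p = 0.00178), with iKO 3 the highest of its group and still far under every control. Ints8 overlaps 609 exon bases of Ccne2 on the opposite strand and went the other way, with 40.4 CPM in iKO-labelled and 21.7 CPM in control libraries (0.89, adjusted p = 0.0349). How reads of that overlap were shared out is not stated in the sources used here.

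Cdk2, the kinase of the E cyclins and later of cyclin A, lies on chromosome 10 (128697939 to 128705031, minus strand). It had 57.0, 43.8 and 46.9 CPM in the iKO-labelled libraries and 94.8, 141 and 126 CPM in the controls. The groups were apart, and Cdk2 was 2.45-fold lower (log2 fold change -1.29 ± 0.17, adjusted p = 0.00185). Control 1 was the lowest control for Ccnd1, Ccnd3, Cdk4, Cdk6, Ccne2 and Cdk2, but not for Ccne1 or Ccnd2.

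Levels of different genes can be set side by side per length, for which the deposited FPKM were used. In the iKO-labelled libraries Ccnd1 stood first with 117 ± 22.9 FPKM (SD, n = 3), ahead of Cdk4 with 73.8 ± 10.6 FPKM, and in the controls Cdk4 stood first with 116 ± 6.19 FPKM, ahead of Ccnd1 with 55.9 ± 5.47 FPKM. At the lengths behind the deposited FPKM these neighbours did not overlap in either group, so their order differed between the groups. A longer Ccnd1 would narrow its gap to Cdk4 in the iKO-labelled libraries, so that separation rests on the length used. Below them in the iKO-labelled libraries came Cdk2 (20 ± 2.83 FPKM), Ccnd3 (9.89 ± 1.69), Ccne2 (4.82 ± 1.43), Cdk6 (4.26 ± 1.32), Ccnd2 (1.34 ± 0.358) and Ccne1 (1.07 ± 0.0857). Ccne2 overlapped Cdk6 there, and Ccnd2 overlapped Ccne1. In the controls the order was Cdk2 (48.6 ± 9.91 FPKM), Ccne2 (17.3 ± 3.67), Ccnd3 (13.1 ± 2.23), Ccne1 (12.3 ± 2.50), Cdk6 (8.33 ± 0.637) and Ccnd2 (1.3 ± 0.566), in which Cdk2 overlapped Ccnd1, and Ccnd3 overlapped both Ccne2 and Ccne1. Ccne1 was thus sixth of 8 in the controls and last in the iKO-labelled libraries.

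The order depends on the gene lengths behind the FPKM. For 6 of the 8 genes the length implied by count and FPKM equalled the summed exons of GENCODE M21, but for Ccnd1 it was 3835 bases against 4709, and for Cdk2 2432 bases against 6219. The annotation behind the counts was therefore another one for those genes, and their levels relative to the other genes carry that uncertainty, whereas a gene's fold between groups does not depend on its length.

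The D cyclins together had 155, 123 and 107 FPKM in the iKO-labelled libraries and 62.6, 71.6 and 76.7 FPKM in the controls. Ccnd1 made up 92.0%, 90.5% and 90.9% of that sum in the iKO-labelled libraries and 80.0%, 79.4% and 79.4% in the controls, while the share of Ccnd3 was 7.72% ± 0.618 against 18.5% ± 1.33 (SD, n = 3). The E cyclins together had 5.01, 5.19 and 7.49 FPKM in the iKO-labelled libraries and 25.4, 36.0 and 27.4 FPKM in the controls, and Ccne1 supplied 18.9% ± 4.92 of them in the iKO-labelled and 41.6% ± 4.71 in the control libraries. Messenger RNA of D cyclins per E cyclin was 30.9, 23.8 and 14.4 in the iKO-labelled libraries and 2.46, 1.99 and 2.80 in the controls. Per Cdk4 and Cdk6, D cyclin messenger RNA stood at 1.64 ± 0.144 in the iKO-labelled libraries and 0.563 ± 0.0315 in the controls. Cdk4 was the main partner throughout, with 94.5% ± 1.70 of the summed Cdk4 and Cdk6 in the iKO-labelled and 93.3% ± 0.36 in the control libraries, and these shares overlapped.

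**Figure D3:**
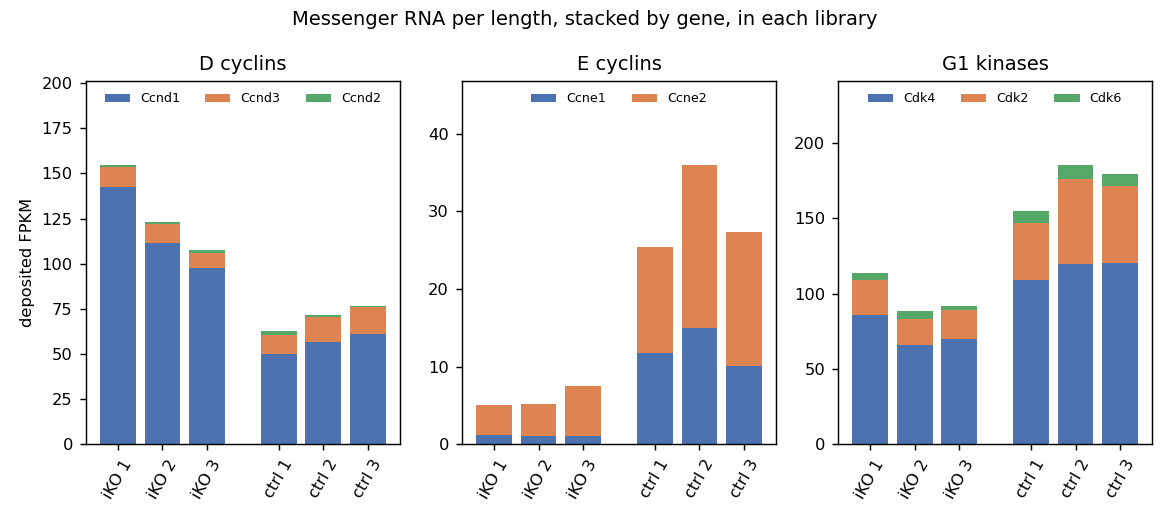
Deposited FPKM stacked by gene for the D cyclins, the E cyclins and the kinases Cdk4, Cdk2 and Cdk6 in each library. The D cyclin bars are taller in the iKO-labelled libraries because of Ccnd1, and the E cyclin bars fall to 7.49 FPKM or less there.

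Whether related genes changed by different amounts was asked from their ratio within a library, which does not depend on how libraries are scaled. With 3 libraries a group, the smallest two-sided p of the exact permutation test is 0.1, so no ratio could pass a threshold of 0.05, and the p-values were adjusted over 6 pairs. The log2 ratio of Ccnd1 to Ccnd3 counts was 2.47, 2.23 and 2.41 in the iKO-labelled libraries and 1.03, 0.88 and 0.82 in the controls, a difference of 1.46 ± 0.10 (SE, exact permutation p = 0.1, adjusted 0.2). That of Ccne1 to Ccne2 was -2.10, -2.41 and -3.05 in the iKO-labelled libraries and -0.61, -0.88 and -1.17 in the controls, a difference of -1.63 ± 0.32 (exact permutation p = 0.1, adjusted 0.2). For Cdk2 to Cdk4 the ratio was -2.30, -2.30 and -2.29 in the iKO-labelled libraries, with an SD of 0.0053, and -1.95, -1.49 and -1.65 in the controls, a difference of -0.60 ± 0.14 (exact permutation p = 0.1, adjusted 0.2). These 3 ratios did not overlap between the groups. The other 3 did: Ccnd1 to Ccnd2 (0.93 ± 0.61, exact permutation p = 0.2), Ccnd2 to Ccnd3 (0.53 ± 0.65, exact permutation p = 0.5) and Cdk4 to Cdk6 (0.35 ± 0.29, exact permutation p = 0.4). Their adjusted values were 0.3, 0.5 and 0.48, and whether Cdk6 fell by more than Cdk4 was not resolved at this n.

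**Figure D4:**
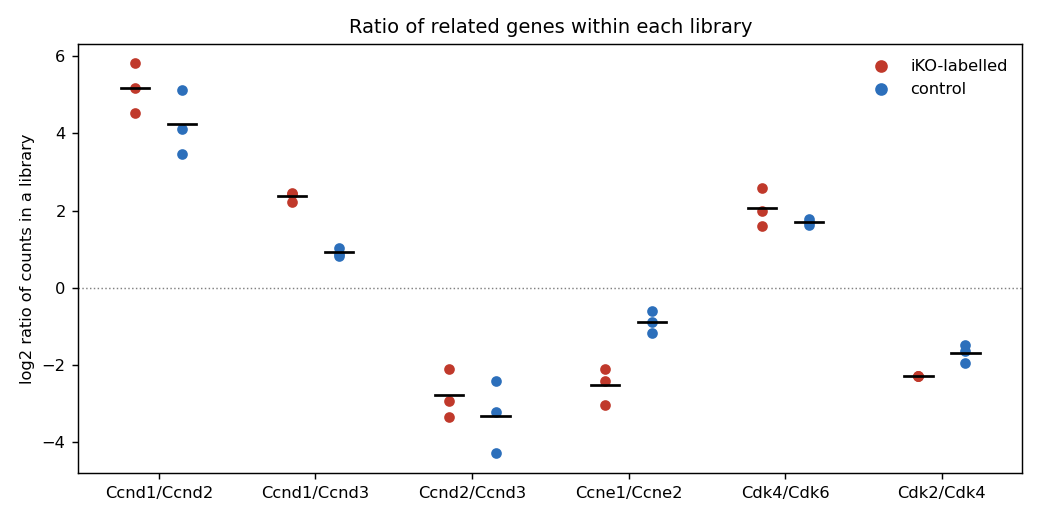
Log2 ratio of the counts of related genes within each library, with a black line at the group mean. The groups are apart for Ccnd1/Ccnd3, Ccne1/Ccne2 and Cdk2/Cdk4, and the iKO-labelled points of Cdk2/Cdk4, at -2.30, -2.30 and -2.29, are drawn over each other.

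The genes around the 8 were taken from 8 lists by role, with 70 genes of which 69 were tested. Of these 7 rose and 36 fell, while 8.15% of all tested genes were called higher and 12.3% lower. The counts of each list below are to be read beside these shares, and in a list of 3 genes 1 call says little. Among the 3 Cip/Kip inhibitors 1 rose and the others were not called. Cdkn1a, which encodes p21, had 1499.7, 1282 and 1523 CPM in the iKO-labelled libraries and 416, 441 and 367 CPM in the controls (1.81 ± 0.10, adjusted p = 5.16e-05). The ratio of Cdkn1a to Cdk2 FPKM was 32.1 ± 3.36 in the iKO-labelled libraries and 3.8 ± 0.875 in the controls. The size of this ratio depends on the length used for Cdk2 (2432 bases, against 6219 in GENCODE M21), whereas its fold between groups does not. The relatives Cdkn1b (p27), at 14.1 ± 1.63 and 13.8 ± 2.41 CPM, and Cdkn1c (p57), at 20.2 ± 0.789 and 19.2 ± 9.29 CPM in iKO-labelled and control libraries, were not called (adjusted p = 0.933 and 0.901). Of the Ink4 inhibitors of Cdk4 and Cdk6, 3 of 4 were tested and none was called at an adjusted p under 0.05 by edgeR, in any alternative including DESeq2 and limma, and none had an unadjusted p under 0.05 in the edgeR test. Cdkn2c (p18), the most expressed, had 13.8 ± 1.67 CPM in iKO-labelled and 17.2 ± 6.25 CPM in control libraries, Cdkn2d (p19) had 5.13 ± 1.40 and 7.25 ± 1.81 CPM and Cdkn2b (p15) had 2.74 ± 1.56 and 4.32 ± 1.04 CPM. Cdkn2a was under the filter.

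Of 7 genes that activate or assemble the kinases, 3 fell and the other 4 were not called. Cks1b, a small subunit that binds Cdk2 and also helps the ligase that removes p27, went down to 19.5 ± 1.87 CPM in iKO-labelled libraries, against 92.1 ± 19.3 CPM in controls (-2.24 ± 0.18, adjusted p = 2.18e-04). Its relative Cks2 (-0.87 ± 0.14) and Cdc37, the chaperone partner that loads Cdk4 onto Hsp90 (-0.33 ± 0.07, adjusted p = 0.0114), fell as well, and the call of Cdc37 was lost when libraries were scaled by their totals. Mnat1, a subunit of the kinase that activates Cdks by phosphorylation, was not called (-0.38 ± 0.18, adjusted p = 0.195).

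Among 12 genes that turn over cyclins and inhibitors, 5 fell and 2 rose. Those that fell were Dtl (-2.39 ± 0.17), Ddb1 (-1.10 ± 0.09) and Cul4a (-1.03 ± 0.13), which are parts of the Cul4 ligase that removes p21 and Cdt1 in S phase, Gsk3b, a kinase that marks cyclin D1 for export and decay (-0.63 ± 0.09), and Skp2, the receptor of the ligase for p27, with 15.4 ± 0.883 CPM in iKO-labelled and 28.8 ± 9.60 CPM in control libraries (-0.91 ± 0.26, adjusted p = 0.0414). Ddb1 had 228, 236 and 249 CPM in the iKO-labelled libraries and 461, 554 and 510.5 CPM in the controls. Skp2, Ambra1 and Fbxo31 are named outside the rule, after their values were seen. Ambra1, a receptor that sends D cyclins to decay, had 58.1, 46.8 and 50.4 CPM in iKO-labelled and 39.2, 38.2 and 36.0 CPM in control libraries (0.45 ± 0.13, adjusted p = 0.0442). Fbxo31, which does the same for cyclin D1 after DNA damage, had 34.2, 32.1 and 30.3 CPM in iKO-labelled and 11.2, 22.2 and 20.3 CPM in control libraries (0.85 ± 0.25, adjusted p = 0.0488). Leaving out any 1 library ended the call of Ambra1 (adjusted p up to 0.132), and leaving out any of 5 of the 6 ended those of Fbxo31 and Skp2 (up to 0.13 and 0.132). The call of Skp2 held in 6 of 16 alternatives, and was also lost when libraries were scaled by their totals or upper quartiles and on the log2 FPKM scales.

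Of the 3 pocket proteins, Rbl1 (p107) fell and the others were not called. Rbl1 had 2.70 ± 0.602 CPM in iKO-labelled and 29.6 ± 13.9 CPM in control libraries (-3.46 ± 0.38, adjusted p = 7.75e-04), whereas Rb1 had 18.3 ± 1.59 and 14.4 ± 2.98 CPM (0.34 ± 0.21, adjusted p = 0.3) and Rbl2 (p130) 17.9 ± 1.37 and 22.1 ± 3.98 CPM (-0.30 ± 0.19, adjusted p = 0.329). Of 10 E2F and DP genes, 6 fell and 1 rose. E2f1 went down to 3.14 ± 1.14 CPM in iKO-labelled libraries, against 22.2 ± 3.12 CPM in controls (-2.82 ± 0.32), and E2f7, a repressor that E2F factors induce, to 0.405 ± 0.472 against 12.4 ± 1.04 CPM (-4.91 ± 0.75). Tfdp1, the main dimer partner, fell by 1.51 on the log2 scale and E2f4, a repressor of resting cells, by 0.63. Tfdp2, named after its value was seen, was called higher (0.52 ± 0.15, adjusted p = 0.0447), a call lost on leaving out any 1 library (adjusted p up to 0.124) and on the log2 FPKM scales.

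All 19 S-phase genes that E2F drives fell, with a median log2 fold change of -2.37, and did so in every alternative. Cdc6, which loads the replicative helicase and is also a substrate of cyclin E and Cdk2, had 1.44 ± 0.432 CPM in iKO-labelled and 58.5 ± 9.76 CPM in control libraries (-5.33 ± 0.27, adjusted p = 4.21e-05). The helicase subunits Mcm4 (-2.31 ± 0.08) and Mcm3 (-2.56 ± 0.17) and Rrm2, the regulated subunit of ribonucleotide reductase (-2.97 ± 0.14), fell by amounts between those of Ccne2 and Ccne1. The ends of the list, named after their values were seen, were Pcna (-0.95 ± 0.09) and Mybl2 (-6.31 ± 0.47). Ccna2, the next cyclin of the cycle and a later partner of Cdk2, also named after its value was seen, had 0.77, 1.29 and 2.96 CPM in iKO-labelled libraries and 41.5, 63.6 and 51.9 CPM in controls (-4.98 ± 0.45), a larger fall than that of either E cyclin.

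Among 12 transcription factors through which growth signals reach the D cyclin genes, 3 rose and 2 fell, with a median log2 fold change of 0.20. Stat3 had 557 ± 29.5 CPM in iKO-labelled and 352 ± 53.3 CPM in control libraries (0.66 ± 0.11, adjusted p = 0.00492), and Rela, a subunit of NF-κB, 461 ± 24.4 and 329 ± 31.9 CPM (0.49 ± 0.09, adjusted p = 0.00713). Junb, named after its value was seen, rose by 0.47 ± 0.11 (adjusted p = 0.017), but without control 3 it missed the threshold (adjusted p = 0.0525). Myc and Jun fell, Jun with 907 ± 57.7 CPM in iKO-labelled and 1144 ± 62.9 CPM in control libraries (-0.33 ± 0.07, adjusted p = 0.0136). The call of Jun was lost when libraries were scaled by their totals and without iKO 2 (adjusted p = 0.0557).

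**Figure D5:**
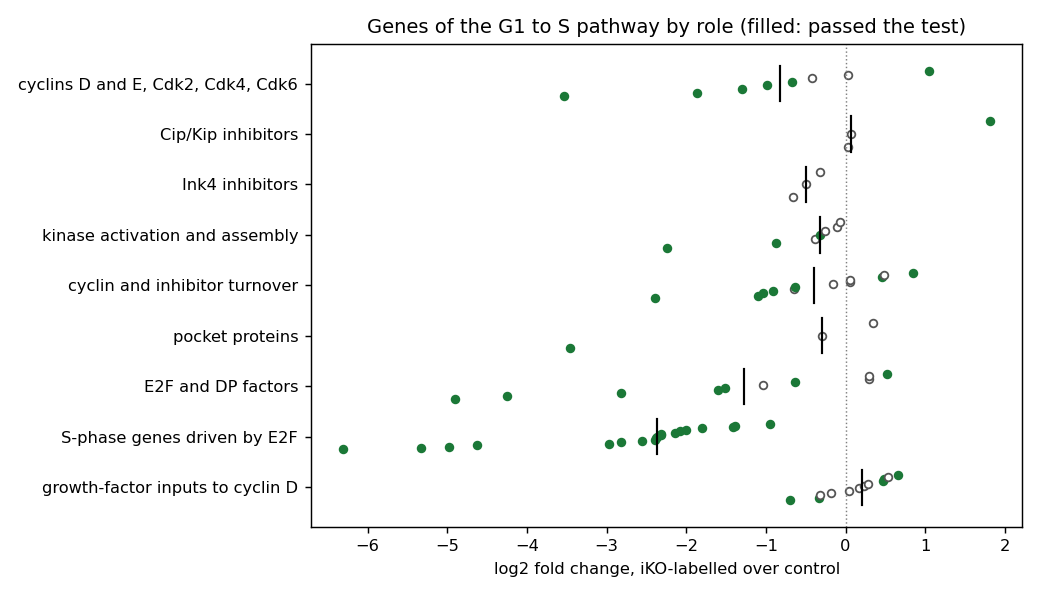
Log2 fold change, iKO-labelled over control, of every tested gene by role, with a black line at each list's median; filled points passed the test. The 19 S-phase genes all lie below 0, while Ccnd1 and Cdkn1a stand above 1.

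The genes with the most similar pattern over the 6 libraries were sought by Pearson's r of log2 CPM among 5265 well-expressed genes (mean log2 CPM 5 or more). Such an r ignores the size of a change, and with 2 groups that differ it mostly reflects that difference, so it is given as a description. For Ccne1 the closest were Rab18 (r = 0.999) and Csf1 (r = 0.999), for Ccne2 Stub1 (0.996) and Atp6ap1 (0.994), and for Cdk2 Snx9 (0.998) and Pcmt1 (0.997). For Cdk4 they were Slc29a1 (0.998) and Ndufs3 (0.998), for Cdk6 Slc25a46 and Glce (0.995 each), for Ccnd1 Tpt1.ps3 (0.996) and Ssbp1 (0.994), and for Ccnd3 Btbd1 (0.991) and Psmc6 (0.990). For Ccnd2, which was not called, they were Rgs5 (0.986) and Tnfaip6 (0.985), and only 6 genes reached an r of 0.95, against 603 for Ccne1.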

How the data were processed

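The deposited table of raw counts per gene and the deposited table of FPKM held the same 46078 rows and 1 column for each of the 6 libraries; 551 rows without a gene name (0.108% to 0.123% of counts) were left out. Per the labels' protocols, complementary DNA was made and amplified by Smart-Seq2, which does not mark strand. Per the submitters' processing notes, the tools were DESeq2, featureCounts, STAR, Subread and Trim Galore, with mm10 as the build; annotation, strand setting and the handling of reads with several matches are not stated there. The FPKM, as the authors deposited them, are scaled by a single factor per library (largest relative deviation between genes 9.33e-15 over the 11939 genes that had 20 counts or more in each library). Between libraries these factors equalled median-of-ratios size factors (largest relative difference 1.78e-15).

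Counts were fitted in R 4.3.3 with edgeR 4.0.16 (filterByExpr with minimum count 10 and minimum total 15, TMM factors, quasi-likelihood test with group as the only term). The SE is the size of the log2 fold change divided by the square root of F. A gene was called at a Benjamini-Hochberg adjusted p under 0.05 over 16252 genes. Alternatives were scaling by library totals, upper quartiles or RLE, other filters, the replicate block, DESeq2 1.42.0, limma 3.58.1 (voom, and log2 FPKM plus 1 or 0.1 for genes with a mean FPKM of at least 1), and each library left out. The fit was tested on simulated data with 200 changed genes planted. It recovered 19.4% of those changed 1.5-fold, 53.7% of those changed 2-fold and 87.9% of those changed 4-fold. Of its 114 calls 7 were false. Small changes in genes that were not called may therefore have been missed. Ratios were compared with scipy 1.17.1 after adding 0.5 counts.

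The 8 genes, the gene lists and the motifs were chosen with earlier results of these data known, and the sums per E cyclin, per kinase and per Cdk2 after values were seen. Named are the 8 genes, Paxbp1, up to 4 tested genes of each list with the smallest adjusted p and, for each of the 8, the 2 genes of most similar pattern (no predicted gene models); genes outside this rule are marked. Loci are from GENCODE M21 (GRCm38).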

Additional observations from a re-analysis of the deposited data

How the results depend on the processing

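The 6 calls among the 8 genes held under all 16 alternatives, with Ccnd1 between 0.89 and 1.18, Cdk4 between -0.80 and -0.54, Cdk6 between -1.13 and -0.75, Ccne1 between -3.65 and -2.66, Ccne2 between -2.13 and -1.66 and Cdk2 between -1.44 and -1.16 (log2). Ccnd3 was called with no count filter (-0.41, adjusted p = 0.0366), and Ccnd2 changed sign without control 3 (-0.25) and without iKO 3 (-0.19); the cause was not tested. With each library left out in turn, Ccnd2 ran from -0.25 to 0.39. Cdkn1c and Cdkn1b, called in no setting, changed sign too: Cdkn1c without control 1 (-0.096) and control 3 (-0.12), in a range of -0.12 to 0.55, and Cdkn1b without control 1 (-0.061), iKO 1 (-0.018) and iKO 3 (-0.014), in a range of -0.061 to 0.19. Called genes numbered 3315, and 2053 to 2816 with 1 library left out (2053 without iKO 2, 2103 without iKO 3); those higher numbered 1324, and 706 to 1159 (845, 706 and 732 without iKO 1, 2 and 3). DESeq2 called 4271. Counts in place of FPKM, which weight long genes more, gave differences of 18.9 instead of 11.6 percentage points for the Ccnd1 share, of 3.78 instead of 1.21 for the Cdk4 share, and of 1.41 instead of 1.54 (log2) for D cyclins per kinase.

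The labels number the libraries 1 to 3 in both groups, but same-numbered libraries did not deviate together (correlations of deviations -0.067, -0.0021 and -0.059). With the replicate number as a block 2215 genes were called, 813 of them higher; Ccnd1 was at 1.04 (adjusted p = 0.0129) and all 6 calls held, while those of Cdc37, Jun, Ambra1, Fbxo31, Skp2 and Tfdp2 did not. The few counts of Ccne1 in the iKO-labelled libraries limit the precision of its fold.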
